A study of Mus musculus with 6 samples.

Results

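The 40 genes described here are a set of cell cycle and mitosis genes, and all 40 symbols were found in the feature lists of both fractions, among 32285 listed features in the CD11b and CD11c enriched fraction and 54752 in the CD45-depleted fraction. They were chosen by name, not by their values. By role the set held 8 genes of DNA replication licensing and its clamp (Mcm2 to Mcm7, Pcna, Uhrf1), 4 of nucleotide synthesis (Tyms, Rrm1, Rrm2, Tk1), the 2 E-type cyclins (Ccne1, Ccne2), 9 mitotic kinases, cyclins and checkpoint genes (Cdk1, Ccna2, Ccnb1, Ccnb2, Aurka, Aurkb, Plk1, Bub1, Bub1b), 3 with chromosomal passenger genes (Birc5, Cdca8) and Cdca3, 2 of the anaphase-promoting complex (Cdc20, Ube2c), 5 of the spindle (Kif11, Kif20a, Kif23, Tpx2, Nusap1), 3 of the centromere (Cenpa, Cenpe, Cenpf), 2 of chromosome structure (Mki67, Top2a) and 2 that many resting cells also express (Hmgb2, Stmn1). The first 14 of these are called the S set below and the 24 from Cdk1 to Top2a the mitotic set. Hmgb2 and Stmn1 are in neither.

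Axillary and inguinal nodes were taken from C57Bl/6 mice for single-cell 3′ RNA sequencing. The mice of 1 arm were free of tumour (naive), and those of the other arms carried YUMM1.7 or YUMMER1.7 melanoma and gave tumour-draining nodes. Both are melanoma lines of the mouse, the second derived from the first by ultraviolet mutagenesis and more immunogenic. Nodes of several mice were pooled, and each arm gave 1 library after bead enrichment for CD11b and CD11c and 1 library labelled as depleted of CD45-positive cells, so that 6 libraries were made with 1 per arm and fraction. No group therefore had a replicate, no test across animals was possible, and the 95% intervals below cover only counting error. Neither the age of the mice nor the time after tumour injection is given in the sources used here.

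A dividing cell first licenses its replication origins with the MCM helicase and makes deoxynucleotides, then copies its DNA, and then builds a spindle, aligns its chromosomes and separates them. Transcripts of the first steps peak around the start of S phase under E2F control, and those of mitosis peak in G2 and M phase under the DREAM, B-MYB and FOXM1 system. In a lymph node, cells that divide include germinal-centre B cells, which expand and mutate their antibody genes, plasmablasts on the way to antibody secretion, and activated T cells, whereas migratory and plasmacytoid dendritic cells are held to be mostly out of cycle.

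Promoters are shown because S and mitotic genes differ in them and because the results below turn on that split. RefSeq promoter entries on GRCm38.p6, from 250 bases before to 50 bases after the gene start, were matched by symbol for 33 of the 40 genes. A script searched both strands for the CHR element of mitotic genes (TTTGAA or TTCGAA), for the CCAAT box, and for an E2F site (TTTGGCGC, TTTCCCGC, TTTCGCGC, TTTGCCGC, TTCCCGCC, TTGGCGCC or TTCGCGCC, variants that can overlap each other). A CHR match was found in 16 of 20 mitotic-set promoters (80%), in 2 of 12 S-set promoters (16.7%) and in 6316 of all 32851 promoter entries (19.2%), each gene of the sets being counted once. An E2F match was found in 6 of 12 S-set promoters (50%), in 2 of 20 mitotic-set promoters (10%) and in 1578 promoters in all (4.80%). The CCAAT box was present in 18 of the 20, in 9 of the 12 and in 37.4% of all promoters. A match describes letters in the window, not binding. Below, Plk1 (chr7:122159185-122159484, plus strand) and Top2a (chr11:99024140-99024439, minus strand) stand for the mitotic set with CHR and CCAAT matches in capitals, and Mcm5 (chr8:75109259-75109558, plus strand) and Mcm6 (chr1:128359656-128359955, minus strand) for the S set with E2F matches in capitals.
Plk1: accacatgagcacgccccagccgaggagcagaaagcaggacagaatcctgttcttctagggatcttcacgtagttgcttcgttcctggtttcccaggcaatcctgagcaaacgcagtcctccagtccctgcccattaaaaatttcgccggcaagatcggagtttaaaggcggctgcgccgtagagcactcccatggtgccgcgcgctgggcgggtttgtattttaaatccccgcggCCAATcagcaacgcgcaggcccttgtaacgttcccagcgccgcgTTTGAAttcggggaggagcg
Top2a: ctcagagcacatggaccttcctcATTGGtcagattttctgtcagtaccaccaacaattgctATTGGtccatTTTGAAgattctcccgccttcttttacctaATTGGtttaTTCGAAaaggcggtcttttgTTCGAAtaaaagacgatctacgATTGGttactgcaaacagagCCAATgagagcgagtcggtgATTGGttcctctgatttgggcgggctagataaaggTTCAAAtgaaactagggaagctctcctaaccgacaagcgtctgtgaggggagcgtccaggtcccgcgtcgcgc
Mcm5: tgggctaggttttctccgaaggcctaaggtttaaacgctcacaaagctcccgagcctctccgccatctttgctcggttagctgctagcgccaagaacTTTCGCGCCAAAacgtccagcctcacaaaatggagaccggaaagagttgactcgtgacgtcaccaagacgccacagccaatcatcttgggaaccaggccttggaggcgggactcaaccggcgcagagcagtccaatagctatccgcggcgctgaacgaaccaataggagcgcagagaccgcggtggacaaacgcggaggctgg
Mcm6: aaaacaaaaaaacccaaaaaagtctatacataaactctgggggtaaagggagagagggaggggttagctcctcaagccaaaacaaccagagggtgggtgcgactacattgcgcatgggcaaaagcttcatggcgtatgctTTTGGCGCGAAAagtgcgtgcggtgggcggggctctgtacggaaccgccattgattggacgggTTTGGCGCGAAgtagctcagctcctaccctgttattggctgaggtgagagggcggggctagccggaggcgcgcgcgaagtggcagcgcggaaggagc

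The 6 libraries held between 7144 and 13821 cell barcodes and between 67709285 and 86471908 unique molecular identifiers (UMIs, each a counted transcript molecule). After filters on UMIs, genes, mitochondrial share and doublet score, 6482 to 12382 cells per library were kept. Where 3 values follow each other, here and below, they stand for naive, YUMM1.7 and YUMMER1.7 in that order. The median was 6726, 9401 and 10170.5 UMIs per kept cell in the enriched libraries and 4152, 4603 and 4888.5 in the depleted ones. Any 2 libraries shared 6 to 49 barcodes, at most 0.431% of the smaller library. The sample labels call the second fraction reduced in CD45, while its protocol text describes positive selection of stromal cells with CD45 beads, so the selection that was applied is not clear. In that fraction B cell-like clusters alone, which are CD45-positive cells, held 6524 of 12382, 3789 of 8287 and 2186 of 6554 kept cells. Cells were grouped without the cell cycle genes, and a class name below, such as regulatory T cell, means cells like that type by their markers. Fractions were counted against feature lists of different size and were never pooled.

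Because a deeper cell shows more genes, each cell was thinned at random to 2000 UMIs, and a cell with 3 or more of the 40 genes at that depth is called a 3-gene cell. In the enriched fraction 755 of 8449 naive cells (8.94%, interval 8.34 to 9.56), 715 of 6284 YUMM1.7 cells (11.4%, 10.6 to 12.2) and 720 of 5925 YUMMER1.7 cells (12.2%, 11.3 to 13) were 3-gene cells. In the depleted fraction the values were 1311 of 11492 (11.4%, 10.8 to 12.0), 1346 of 7431 (18.1%, 17.2 to 19) and 845 of 4695 (18%, 16.9 to 19.1). Both tumour arms thus lay above naive at this depth, and the tumour arms did not differ from each other beyond counting error on this measure. At 4000 UMIs the enriched log2 ratio of YUMM1.7 to naive was 0.076 (-0.029 to 0.18), an interval that spans 0. Without thinning the shares were 42.7%, 51.6% and 55.4% in the enriched and 34.6%, 47.0% and 51.1% in the depleted libraries. With 2 or more mitotic-set genes in place of 3 of all genes, the shares were 3.65%, 6.25% and 7.59% in the enriched and 6.35%, 13.7% and 13.7% in the depleted fraction. On that measure the enriched tumour arms did differ, with intervals of 5.67 to 6.88 and 6.93 to 8.30.

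Many cells lay near the limit of 3 genes, and the arms parted more among cells with many. In the depleted libraries, cells with exactly 2 genes made up 17.2%, 17.7% and 15.3%, and cells with exactly 3 made up 5.52%, 6.03% and 4.79%. Cells with 10 or more made up 2.83%, 5.81% and 7.16% there. In the enriched libraries cells with 10 or more made up 1.44%, 2.91% and 3.95%. The highest number of the 40 genes in 1 thinned cell was 24.

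Dendritic cells held to be out of cycle gave the background of this measure. In the depleted fraction 4 of 146 naive, 2 of 158 YUMM1.7 and 3 of 114 YUMMER1.7 plasmacytoid dendritic cells were 3-gene cells (2.74%, 1.27% and 2.63%; 43.3%, 53.5% and 59.1% at full depth; medians of 8675, 9162 and 10546 UMIs). Migratory dendritic cells, which carry antigen into the node, gave 4.23%, 5.21% and 3.92% in the depleted fraction. In the enriched fraction they gave 58 of 1657 (3.5%), 24 of 589 (4.07%) and 24 of 376 (6.38%), at medians of 10251, 10961.5 and 9059 UMIs. Shares of a few percent therefore lie within the background of these dendritic cells. In the enriched fraction that background was itself higher in the YUMMER1.7 library than in the naive one (log2 ratio 0.87, 0.12 to 1.58). The background of other classes was not measured and can differ, so it is not known which of their shares exceed it.

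**Figure D1:**
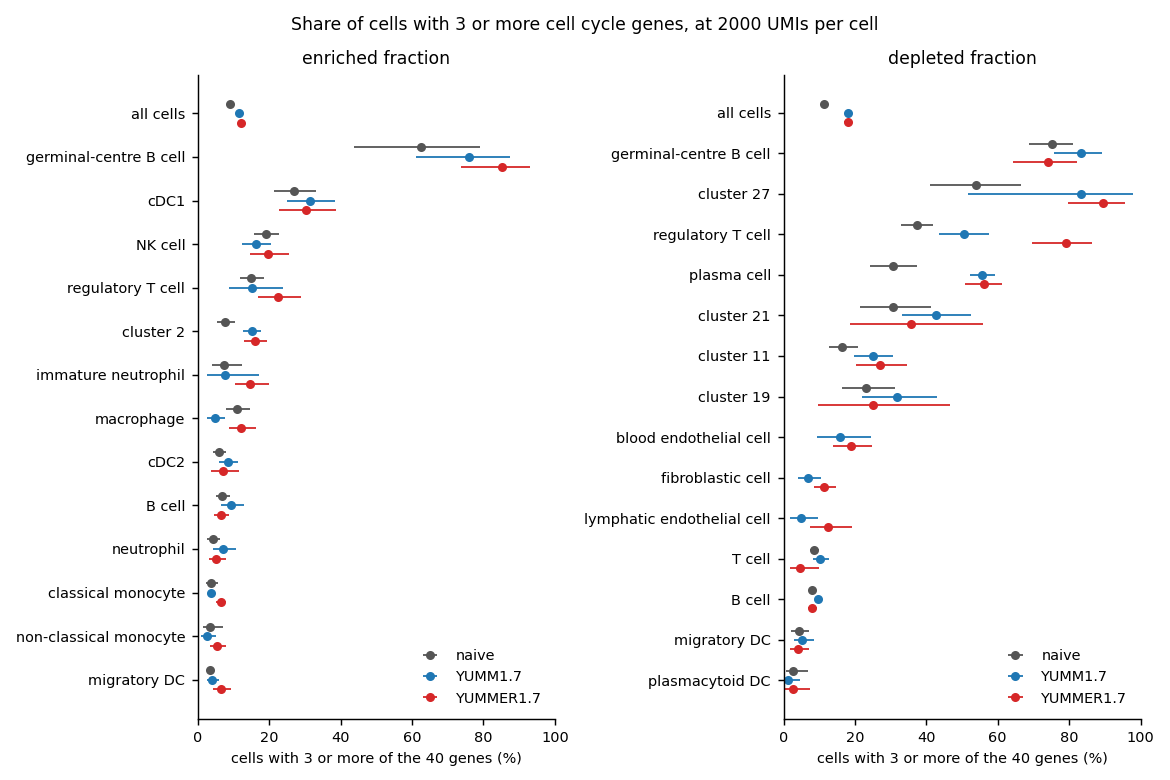
Share of cells with 3 or more of the 40 genes at 2000 UMIs per cell (x axis, percent) by cell class (y axis) in the enriched and the depleted fraction. Points are libraries, coloured by arm, and bars are exact 95% intervals that cover counting error only. Germinal-centre B cells of the depleted fraction lie between 74.0% and 83.2%, and regulatory T cells of the depleted fraction run from 37.3% in the naive to 79.0% in the YUMMER1.7 library.

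Germinal-centre B cells were the named class with the highest share in naive and in YUMM1.7 nodes of both fractions, among classes of 30 or more cells. In the depleted fraction 152 of 202 naive (75.2%, 68.7 to 81.0), 109 of 131 YUMM1.7 (83.2%, 75.7 to 89.2) and 74 of 100 YUMMER1.7 cells (74.0%, 64.3 to 82.3) were 3-gene cells, and 42.1%, 53.4% and 46.0% carried 10 or more of the genes. In the enriched fraction 20 of 32, 35 of 46 and 52 of 61 such cells were 3-gene cells (62.5%, 76.1% and 85.2%).

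High shares were also found in regulatory T cells, plasma cells and a set of Cd8b1-positive cells. Of depleted-fraction regulatory T cells, 173 of 464 naive (37.3%, 32.9 to 41.9), 105 of 208 YUMM1.7 (50.5%, 43.5 to 57.5) and 79 of 100 YUMMER1.7 cells (79.0%, 69.7 to 86.5) were 3-gene cells. Of plasma cells, 62 of 203 (30.5%, 24.3 to 37.4), 431 of 774 (55.7%, 52.1 to 59.2) and 204 of 364 (56.0%, 50.8 to 61.2) were. Cluster 27 of the depleted fraction, led by Klrc1, Ifng, Gzmk, Pdcd1 and Havcr2, had 34 of 63 (54.0%, 40.9 to 66.6), 10 of 12 (83.3%, 51.6 to 97.9) and 60 of 67 (89.6%, 79.7 to 95.7). Its markers gave it the name NK cell, but 85.3%, 80% and 93.3% of its 3-gene cells had a UMI of Cd8a and 91.2%, 80% and 95% of Cd8b1, the chains of the CD8 co-receptor, so it is called by its number. Cells named immature neutrophils, a cluster that also carries mast cell markers, had 17 of 51 (33.3%, 20.8 to 47.9), 32 of 69 (46.4%, 34.3 to 58.8) and 47 of 81 (58.0%, 46.5 to 68.9). In all 4 of these the naive library was the lowest. Unnamed clusters of the depleted fraction held 3-gene cells too. Its cluster 21 had 28 of 91 (30.8%), 46 of 108 (42.6%) and 10 of 28 (35.7%). Its cluster 29, of few cells, had 7 of 12 (58.3%), 15 of 21 (71.4%) and 9 of 15 (60%).

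Among cells of the enriched fraction, conventional dendritic cells of type 1 (cDC1, which cross-present antigen to CD8 T cells) were the named class of 30 or more cells next to germinal-centre B cells. Their 3-gene shares were 62 of 231 naive (26.8%, 21.2 to 33.0), 59 of 188 YUMM1.7 (31.4%, 24.8 to 38.5) and 42 of 139 YUMMER1.7 cells (30.2%, 22.7 to 38.6), and 88.7%, 86.4% and 85.7% of these had a UMI of the chemokine receptor gene Xcr1. NK cells gave 19%, 16.2% and 19.6%, cDC2 5.93%, 8.33% and 6.95%, and classical monocytes 3.78%, 3.68% and 6.42%. Apart from these stood the enriched cluster 21, in which 66 of 66, 158 of 160 and 114 of 114 cells were 3-gene cells although the 40 genes were not used to build it. Further cycle genes such as Iqgap3, Neil3 and Pclaf led it, so it is read as a cluster of cycling cells. These genes do not settle its cell type. When genes that follow the cycle were also left out of the clustering, a choice made after seeing the data, 56.1%, 88.1% and 87.7% of its cells joined another unnamed cluster and 40.9%, 6.25% and 7.02% joined cDC2. Of the 3-gene cells of cluster 21, 92.4%, 93.0% and 91.2% had a UMI of Flt3, a growth factor receptor of dendritic cells and their precursors, and 59.1%, 28.5% and 18.4% of Cd209a, a cDC2 gene. With the cycle-following genes left out, the 3-gene shares of cDC2 were 9.55%, 9.89% and 11.1%, above those of the main clustering. The same choice in the depleted fraction gave a cDC1 class with 21 of 49, 41 of 60 and 4 of 8 3-gene cells.

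The make-up of all 3-gene cells differed between arms. Plasma cells made up 62 of the 1311 in the naive depleted library (4.73%), 431 of 1346 in the YUMM1.7 library (32.0%) and 204 of 845 in the YUMMER1.7 library (24.1%). Other B cells made up 37.3%, 25.7% and 20.1%, and regulatory T cells 13.2%, 7.80% and 9.35%. In the enriched fraction cluster 21 made up 8.74%, 22.1% and 15.8%, and classical monocytes 2.78%, 7.13% and 11.1%. These shares also move with how many cells of each class the beads left, whose part was not tested.

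**Figure D2:**
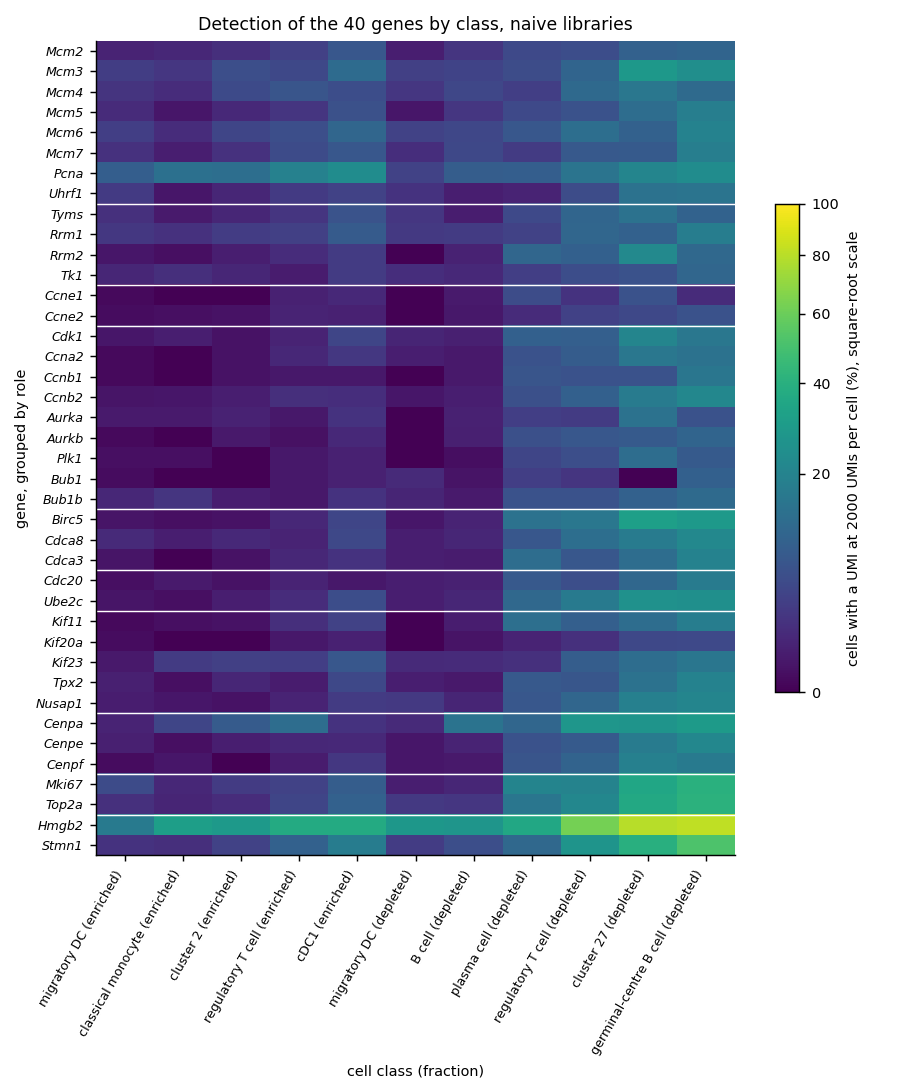
Share of thinned cells with a UMI of each of the 40 genes (rows, grouped by role) in 11 cell classes (columns) of the naive libraries, on a square-root colour scale in percent. Hmgb2 is seen in background types too (27.8% of migratory dendritic cells of the depleted fraction), while Mki67 is at 0.70% there and at 40.1% in germinal-centre B cells.

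Detection of single genes showed which of the 40 carry the measure. Hmgb2, a chromatin protein gene, was detected in 81.7% of thinned naive germinal-centre B cells of the depleted fraction but also in 27.8% of migratory dendritic cells, and in 58.4% of neutrophils of the enriched fraction. Pcna, the replication clamp, was detected in 23.8% of germinal-centre B cells and 3.87% of migratory dendritic cells of the depleted fraction, and in 8.87% of the migratory dendritic cells of the enriched one. Top2a, the topoisomerase that untangles sister chromosomes, was at 41.1% against 2.82%, Mki67, the proliferation marker that coats mitotic chromosomes, at 40.1% against 0.70%, and Birc5, the survivin gene, at 29.2% against 0.35%. Ccnb1, Kif11, Plk1 and Rrm2 had no UMI in any of the 284 thinned migratory dendritic cells, which allows up to 1.06% of cells with a UMI at this depth and does not limit the share of cells that express them.

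The 2 sets did not stand in the same proportion in every class. Of 3-gene cells in the depleted libraries, 3.23%, 4.87% and 8.33% of plasma cells had 2 or more S-set but fewer than 2 mitotic-set genes, and 37.1%, 44.3% and 36.8% had the reverse. Regulatory T cells with 2 or more of both sets made up 54.3%, 59.0% and 72.2%, and germinal-centre B cells 49.3%, 64.2% and 73.0%. By contrast, 45.2%, 30.5% and 38.1% of enriched-fraction cDC1 3-gene cells and 63.6%, 58.8% and 43.2% of those of cluster 2, a Flt3-positive cluster led by Ctnnd2, Clec4a4 and Scn3a, had S-set genes only. In classical monocytes cells with mitotic-set genes only made up 6 of 21, 13 of 51 and 36 of 80 (28.6%, 25.5% and 45%). S-set cells thus outnumbered mitotic-set cells in cluster 2 in each arm, though in YUMMER1.7 at 43.2% against 30.9%, and were fewer in plasma cells. S-set cells also made up 67.5%, 51.4% and 53.8% of the cDC2 3-gene cells. In migratory dendritic cells of the enriched fraction, part of the background, they made up 51.7%, 29.2% and 33.3%. Mitotic-set cells were more there in both tumour arms, at 33.3% and 41.7%. An excess of S-set cells is therefore not shown to be particular to cluster 2 or cDC1.

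**Figure D3:**
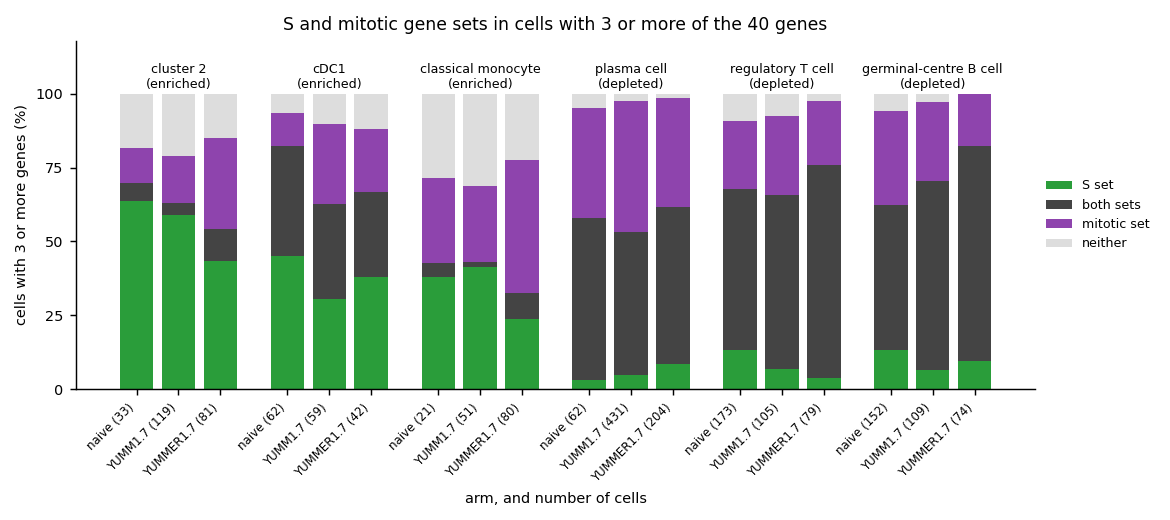
Cells with 3 or more of the 40 genes (y axis, percent) split by gene set in 6 classes and 3 arms, with the number of cells in brackets. S set means 2 or more S genes and fewer than 2 mitotic genes, mitotic set the reverse, both sets 2 or more of each. S-set cells make up 63.6% in naive cluster 2 and 3.23% in naive plasma cells.

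In some classes, cells with 3 or more of the genes held more UMIs than the rest. In depleted-fraction regulatory T cells the median was 17035 UMIs in naive 3-gene cells against 5898 in the rest, 18183 against 5856 in YUMM1.7 and 24113 against 7752 in YUMMER1.7. In plasma cells the ratio of the 2 medians was 1.7, 1.61 and 1.79, and in germinal-centre B cells 1.97, 2.69 and 2.04. In enriched-fraction cDC1 it was 1.04, 1.25 and 1.21, and in classical monocytes 1.11, 1.02 and 1.09. In depleted-fraction B cells it was 0.993, 0.994 and 1.04. Where the ratio is above 1, a sum of UMIs over the class weighs 3-gene cells more than their number would, and shares and sums are both given. The part of doublets in this depth was not tested beyond removal by score. Of the cells removed by score, 10.3%, 21.8% and 28.0% in the depleted and 11.7%, 18.6% and 23.1% in the enriched libraries were 3-gene cells.

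**Figure D4:**
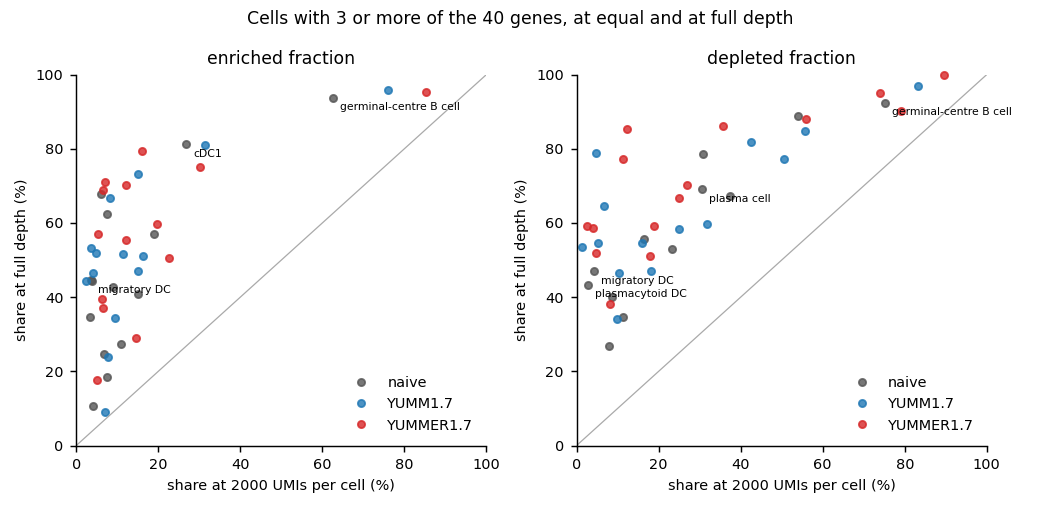
Share of cells with 3 or more of the 40 genes at full depth (y axis, percent) against the share after thinning to 2000 UMIs (x axis, percent), 1 point per class and library. Nearly all points lie above the line of equality, and migratory dendritic cells of the naive enriched library move from 3.5% to 44.6%.

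For the arm comparisons, the 40 genes were also summed per class and library and scaled to CPM (UMIs per 1000000 UMIs of that class). A gene counts as higher when its CPM was at least 2-fold that of the reference library, with 10 or more UMIs over both, and the share of all genes that did so is given as background. YUMM1.7 and YUMMER1.7 are both set against the same naive library, so these comparisons are not independent. Intervals of CPM ratios treat each UMI as an independent count and leave out the spread between cells. They can be too narrow where a few cells hold many of the UMIs, and so can counts of genes with an interval above or below 0 look firmer than they are. Over all cells of the enriched fraction the summed level was 960 CPM naive, 1510 YUMM1.7 and 1754 YUMMER1.7. Against naive, 15 of 40 genes were higher in YUMM1.7 (median log2 ratio 0.83; 4.18% of all genes) and 23 of 40 in YUMMER1.7 (1.13; 7.41% of all genes), and 0 of 40 were higher in YUMMER1.7 than in YUMM1.7 (5.37% of all genes). Over all depleted cells the level was 2305, 3331 and 3490 CPM. There, 2 of 40 genes were higher in YUMM1.7 (20.9% of all genes) and 3 of 40 in YUMMER1.7 (25.3% of all genes), with medians of 0.68 and 0.70 beside 0.03 and 0.11 over all genes. All-cell sums mix classes in unlike numbers, so the classes are given one by one.

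The class named regulatory T cells, after Foxp3-dependent cells that restrain other T cells, differed between all 3 arms of the depleted fraction. The log2 ratio of the 3-gene share was 0.44 (0.07 to 0.80) for YUMM1.7 to naive, 1.08 (0.68 to 1.48) for YUMMER1.7 to naive and 0.65 (0.21 to 1.08) for YUMMER1.7 to YUMM1.7. Summed levels were 8296, 11848 and 14323 CPM, and cells with 10 or more genes made up 21.3%, 34.1% and 64.0%. The order naive, YUMM1.7, YUMMER1.7 held on each of these scales. Without thinning the shares were 67.2%, 77.2% and 90.2%, and the class medians were 7106, 7470 and 16995.5 UMIs; of the 100 thinned YUMMER1.7 cells, 21 were not 3-gene cells. Of the 3-gene cells 54.9%, 73.3% and 82.3% had a UMI of Foxp3 and 68.8%, 69.5% and 70.9% of Cd4, while 20.2%, 17.1% and 22.8% had one of Cd8b1, a gene that marks CD8 T cells. In plasma cells, which should lack Cd8b1, 3.23%, 1.16% and 1.47% of the 3-gene cells had such a UMI, at higher medians of 30128.5, 29392 and 40017.5 UMIs. The source of the Cd8b1 UMIs in the regulatory T cell class was not tested. That class may be mixed, and its name need not hold for each of its 3-gene cells. The share with Foxp3 differed between arms, and the part of the make-up of the class in the arm differences was not tested.

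Gene by gene, nearly all 40 ratios of regulatory T cells lay on the same side. Compared with naive, 0 of 40 genes were 2-fold higher in YUMM1.7 (2.62% of all genes) and 2 of 40 in YUMMER1.7 (3.28% of all genes), yet 39 and 40 of the 40 had a ratio above 0, with medians of 0.41 and 0.75 beside -0.09 and -0.20 over all genes. How many passed in YUMMER1.7 depended on the scale, with 16 of 40 at 2-fold when the median of all genes was set to 0 (5.59% of all genes) and 31 of 40 at 1.5-fold on CPM (10.2% of all genes). Rrm2, a subunit of ribonucleotide reductase, was at 150, 239 and 340 CPM (YUMMER1.7 to naive 1.18, 1.04 to 1.33), and Mcm5, a helicase subunit, at 77.6, 101 and 161 CPM (1.05, 0.84 to 1.26). Both were highest in YUMMER1.7 and lowest in naive. Top2a was at 500, 769 and 863 CPM (0.79, 0.70 to 0.87), Mki67 at 391, 539 and 632 (0.69, 0.59 to 0.79), Birc5 at 278, 431 and 544 (0.97, 0.86 to 1.08) and Stmn1, a microtubule destabiliser, at 571, 679 and 985 (0.79).

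S and mitotic genes parted between the tumour arms in these cells. From YUMM1.7 to YUMMER1.7, 13 of 14 S-set genes had an interval above 0 (median log2 ratio 0.56) against 9 of 24 mitotic-set genes (median 0.14), beside 10.1% of all genes. With the median of all genes set to 0, the counts were 13 of 14 and 14 of 24, and on CPM 0 of 40 genes were 2-fold higher (2.50% of all genes). Tk1, thymidine kinase, was at 55.0, 57.7 and 101 CPM (YUMMER1.7 to YUMM1.7 0.80, 0.51 to 1.10), Pcna at 154, 171 and 273 (0.68, 0.51 to 0.85) and Mcm4 at 98.5, 90.7 and 152 (0.74). Each of these was near its naive level in YUMM1.7 and higher in YUMMER1.7. Cdk1, the mitotic kinase, was at 166, 262 and 272 CPM (0.05, -0.11 to 0.21), Ccnb1, its cyclin, at 88.8, 141 and 143 (0.02), and Ube2c, which tags cyclin for destruction, at 370, 573 and 565 (-0.02). These differed from naive in both arms and not between the arms beyond counting error. From naive to YUMM1.7, 24 of 24 mitotic-set and 8 of 14 S-set genes had intervals above 0, beside 9.35% of all genes.

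**Figure D5:**
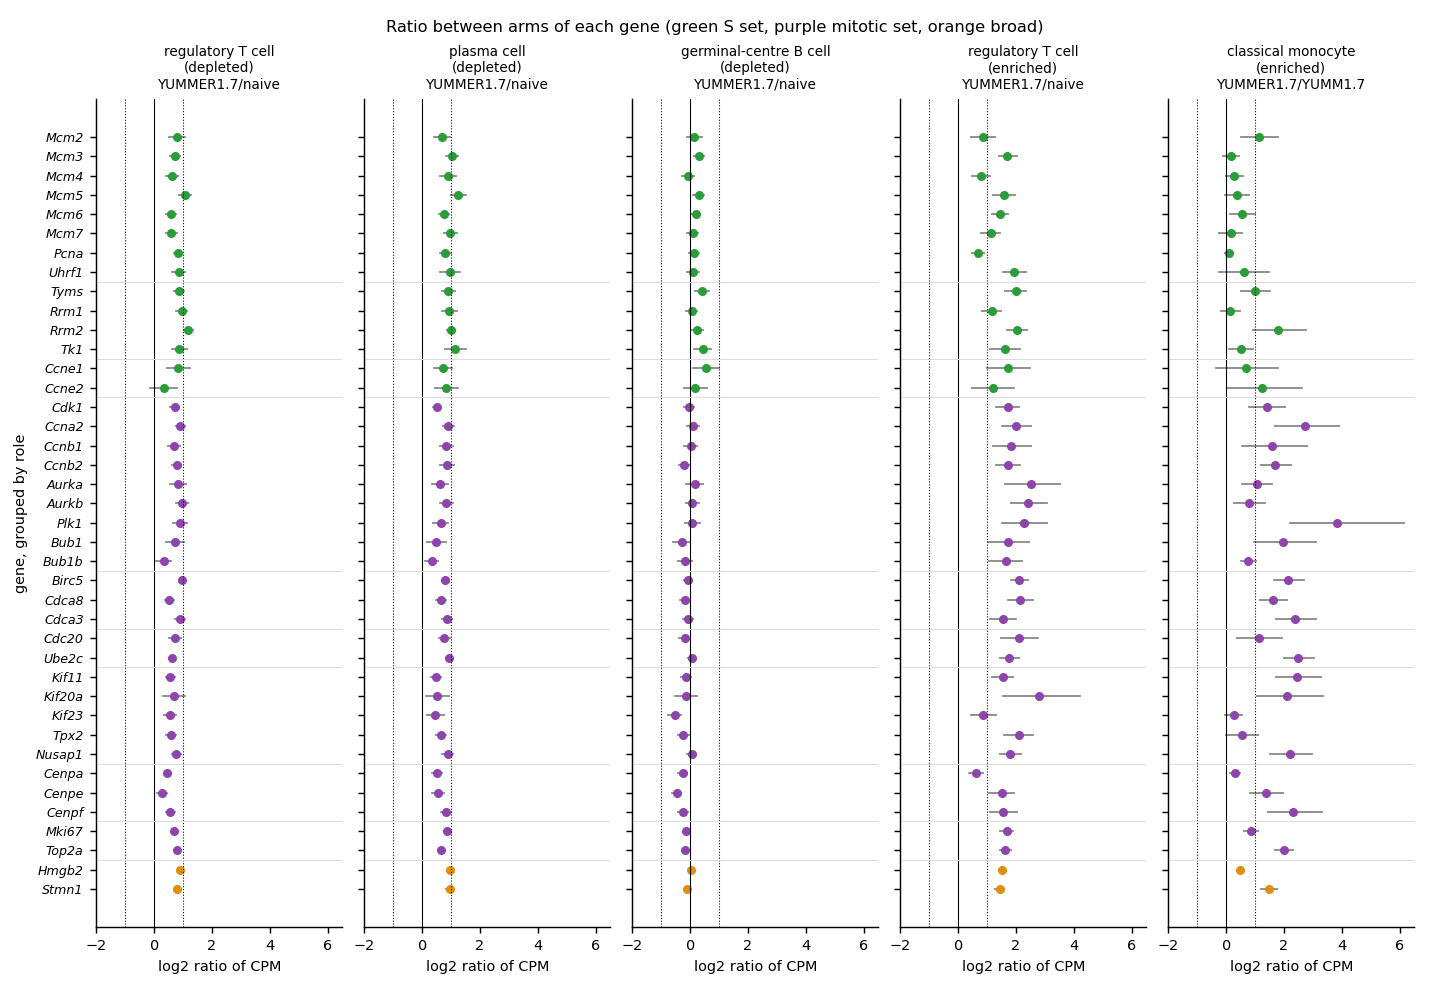
Log2 ratio of CPM between arms (x axis) for each of the 40 genes (y axis, grouped by role) in 5 class comparisons. Points are coloured by set, bars are 95% intervals of counting error, and dotted lines mark 2-fold. All points of the depleted regulatory T cells lie right of 0 with a median of 0.75, those of germinal-centre B cells lie around 0, and in monocytes the S genes have a median of 0.53 and the mitotic genes one of 1.66.

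Plasma cells, which secrete antibody, were the class with the most 3-gene cells in both tumour arms of the depleted fraction. The share was higher than in naive by a log2 ratio of 0.87 (0.48 to 1.27) in YUMM1.7 and 0.88 (0.46 to 1.31) in YUMMER1.7, and the arms differed by 0.01 (-0.24 to 0.25). Summed levels were 3267, 5303 and 5777 CPM, and the shares without thinning 69.2%, 84.8% and 88.0%. The tumour arms thus stood together above naive. Jchain, the joining chain of secreted antibody, was detected in 62 of 62, 430 of 431 and 204 of 204 of the 3-gene cells. Jchain was also detected in 22.5%, 62.4% and 42.3% of the remaining T cells, which do not make it, so this share differed between the depleted libraries, and the part of free RNA in the results was not tested.

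All 40 genes had a higher CPM in plasma cells of either tumour arm than in naive ones, but few reached 2-fold, namely 1 of 40 in YUMM1.7 (9.94% of all genes) and 3 of 40 in YUMMER1.7 (9.17% of all genes), and 32 of 40 reached 1.5-fold in YUMMER1.7 (20.5% of all genes). Medians of the 40 were 0.66 and 0.82 beside 0.15 and 0.12 over all genes. Mcm5 was at 33.9, 64.5 and 80.2 CPM (YUMMER1.7 to naive 1.24, 0.99 to 1.5), Mcm3 at 48.4, 82.0 and 99.1 (1.03) and Tk1 at 17.3, 31.2 and 38.2 (1.15), the 3 past 2-fold. Ccnb2, a mitotic cyclin, was at 39.6, 79.9 and 72.2 CPM (YUMM1.7 to naive 1.01, 0.79 to 1.25) and Cdc20, the activator of the anaphase-promoting complex, at 67.5, 126 and 115 (0.90). Mki67 was at 256, 424 and 463 CPM, Top2a at 231, 353 and 359, and Ccnb1 at 48.0, 78.5 and 85.2, each close between the tumour arms. As in regulatory T cells, 13 of 14 S-set genes had an interval above 0 from YUMM1.7 to YUMMER1.7, but 6 of 24 mitotic-set genes had one above 0 and 2 one below, with medians of 0.26 and 0.07. Of all genes, 12.2% had an interval above 0 and 13.1% one below. Pcna, at 69.6, 88.0 and 121 CPM, had the interval farthest from 0 there (0.46, 0.36 to 0.57).

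Germinal-centre B cells, with most cells in cycle, differed little between arms. The log2 ratio of the share was 0.15 (-0.22 to 0.51) for YUMM1.7 to naive and -0.02 (-0.45 to 0.39) for YUMMER1.7 to naive. The upper bound of the first, 0.51, lies above the 0.44 of regulatory T cells in the same comparison. Summed levels were 9712, 10221 and 9518 CPM, and no direction is read from the last, since its log2 ratio to naive was -0.03 on CPM, 0.06 with median-of-ratios scaling and 0.12 as a mean over cells. There 0 of 40 genes were 2-fold higher in YUMM1.7 (3.99% of all genes) or in YUMMER1.7 (3.96% of all genes). Within this narrow range the sets parted in YUMMER1.7, where 7 of 14 S-set genes had intervals above 0 and 10 of 24 mitotic-set genes had intervals below 0, beside 9.37% of all genes above and 17.8% below. With the median of all genes, -0.09, set to 0, 8 of 14 S-set genes lay above and 4 of 24 mitotic-set genes below, so most of the lower calls depended on the scaling. Kif23, a kinesin of the cleavage furrow, was at 138, 131 and 95.3 CPM (YUMMER1.7 to naive -0.53, -0.75 to -0.32), Cenpe at 221, 211 and 160 (-0.47, -0.64 to -0.30) and Mcm3 at 175, 225 and 217 (0.31, 0.14 to 0.47). In the enriched fraction 4 of 40 genes were 2-fold higher in YUMMER1.7 than in naive (8.75% of all genes), and the share ratio was 0.45 (-0.32 to 1.27).

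B cells and T cells of the depleted fraction had low shares as whole classes. B cells had 489 of 6128 (7.98%), 346 of 3543 (9.77%) and 170 of 2117 3-gene cells (8.03%) at summed levels of 866, 1089 and 1246 CPM, so that YUMMER1.7 was the highest on CPM and close to naive on the share. No order of these arms is read from the share. Against naive, 2 of 40 genes were 2-fold higher in YUMM1.7 (6.63% of all genes) and 9 of 40 in YUMMER1.7 (7.75% of all genes), among them Tyms, thymidylate synthase, at 6.86, 11.3 and 17.1 CPM (1.32, 1.04 to 1.60). Within B cells, cluster 11, led by Agbl1 and Fcrl5, had 54 of 328 (16.5%), 65 of 260 (25%) and 44 of 163 (27%), with ratios to naive of 0.60 (0.06 to 1.15) and 0.71 (0.11 to 1.31). T cells gave 174 of 2017 (8.63%), 78 of 754 (10.3%) and 6 of 129 (4.65%). Their sum was lower in YUMM1.7 than in naive (1036, 655 and 947 CPM; 18 of 40 genes 2-fold lower, 4.13% of all genes), while their share was not, so nothing is read from the share there either. In cluster 27 the share ratio of YUMMER1.7 to naive was 0.73 (0.10 to 1.38), with 0 of 40 genes 2-fold higher (3.83% of all genes) and sums of 10973, 13262 and 13760 CPM. Intervals lay above 0 for 14 of 24 mitotic-set and 3 of 14 S-set genes (7.89% of all genes) and below 0 for 2 of 14 S-set genes (19.2% of all genes). Among the former was Aurkb, a passenger kinase, at 69.8, 139 and 133 CPM (0.93, 0.56 to 1.32). With the median of all genes set to 0, intervals lay above 0 for 19 of 24 mitotic-set and 5 of 14 S-set genes (12.5% of all genes). Below 0 there were then 0 of 14 S-set genes (12.4% of all genes), so the lower calls depended on the scaling.

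Immature neutrophils of the depleted fraction had sums of 2611, 4928 and 6275 CPM. There 19 of 40 genes were 2-fold higher than naive in YUMM1.7 (10.5% of all genes) and 28 of 40 in YUMMER1.7 (14.4% of all genes), while the intervals of the share ratios, 0.48 (-0.42 to 1.42) and 0.80 (-0.03 to 1.69), spanned 0.

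Stromal cells could be compared between the tumour arms only, since the naive depleted library held 8 to 10 cells of each stromal class. Lymphatic endothelial cells had 7 of 146 3-gene cells in YUMM1.7 (4.79%) and 17 of 137 in YUMMER1.7 (12.4%), a log2 ratio of 1.37 (0.03 to 2.88), at 749 and 1678 CPM. In them 29 of 40 genes were 2-fold higher in YUMMER1.7 (4.06% of all genes), with a median log2 ratio of 1.17. Cells with 10 or more genes made up 1.37% of the 146 and 3.65% of the 137 cells. The genes were read in the same cells, so their ratios are not independent, and the part of these few cells was not tested. Mki67 was at 13.8 and 56.2 CPM (2.02, 1.49 to 2.58), Top2a at 27.7 and 95.1 CPM (1.78, 1.40 to 2.18) and Nusap1, a spindle protein gene, at 8.07 and 33.0 CPM (2.03). Fibroblastic cells had 18 of 268 (6.72%) and 48 of 423 (11.3%), with 1 of 40 genes 2-fold higher (3.59% of all genes) and a share ratio of 0.76 (-0.05 to 1.63). Blood endothelial cells had 16 of 101 (15.8%) and 42 of 222 (18.9%) but a lower sum in YUMMER1.7, at 1758 and 1256 CPM, with 6 of 40 genes 2-fold lower (6.14% of all genes), so that share and sum went opposite ways.

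In the enriched fraction classical monocytes, which Ly6c2 and Ccr2 mark, were higher in YUMMER1.7 than in either other arm. Their 3-gene cells numbered 21 of 556 (3.78%, 2.35 to 5.72), 51 of 1387 (3.68%, 2.75 to 4.81) and 80 of 1247 (6.42%, 5.12 to 7.92), all close to the share of migratory dendritic cells, of which 6.38% were 3-gene cells in the same library. The log2 ratio was 0.80 (0.28 to 1.34) for YUMMER1.7 to YUMM1.7. Sums were 478, 517 and 796 CPM, the class medians 9327, 10535.5 and 13551 UMIs. The 2 clusters of the class parted. Cluster 9, led by Vcan, F13a1 and Chil3, had 8 of 236 (3.39%), 16 of 406 (3.94%) and 44 of 381 (11.5%, 8.52 to 15.2), a ratio of YUMMER1.7 to YUMM1.7 of 1.55 (0.70 to 2.48), with 30 of 40 genes 2-fold higher (4.55% of all genes). Cluster 0, led by Ly6i and interferon-induced genes such as Ifit2 and Irf7, had 4.06%, 3.57% and 4.16%, with 4 of 40 genes 2-fold higher (2.71% of all genes). The difference between the 2 clusters was not tested.

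In these monocytes the mitotic genes stood apart from the S genes. From YUMM1.7 to YUMMER1.7, 23 of 40 genes were 2-fold higher (3.54% of all genes), 18 of 24 in the mitotic set (median 1.66) and 4 of 14 in the S set (median 0.53). Against naive, 21 of 40 were higher in YUMMER1.7 (5.58% of all genes) and 4 of 39 in YUMM1.7 (4.20% of all genes). The counts were low, since Ube2c had 6, 38 and 246 UMIs (YUMMER1.7 to YUMM1.7 2.49, 1.99 to 3.02), Top2a 36, 105 and 487 (2, 1.7 to 2.32), Birc5 8, 38 and 194 (2.14, 1.64 to 2.68) and Kif11, the bipolar spindle motor, 5, 18 and 114 (2.45). All 4 were far higher in YUMMER1.7 than in YUMM1.7. Plk1 had 1, 3 and 49 UMIs (3.82, 2.19 to 6.15). Pcna had 414, 1039 and 1279 UMIs (0.09, -0.03 to 0.21) and did not differ beyond counting error, and Hmgb2 differed by 0.48. Monocytes with 10 or more of the genes made up 0%, 0% and 0.80% of the thinned cells. The part of these few cells of 1 library in the gene counts was not tested. The log2 ratio of the sums was 0.62, and 0.24 with cycle genes kept in the clustering.

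The enriched-fraction class named regulatory T cells had 74 of 495 (14.9%, 11.9 to 18.4), 15 of 99 (15.2%, 8.74 to 23.8) and 45 of 200 3-gene cells (22.5%, 16.9 to 28.9). The YUMMER1.7 to naive ratio of the share was 0.59 (0.02 to 1.14). Sums of the class were 2000, 1587 and 5631 CPM, and cells with 10 or more genes made up 2.42%, 1.01% and 12.5%. The YUMM1.7 library thus did not stand above naive here, unlike in the class of the same name in the depleted fraction. Compared with naive, 35 of 40 genes were 2-fold higher in YUMMER1.7 (5.59% of all genes) and 3 of 40 were 2-fold lower in YUMM1.7 (9.27% of all genes), and 38 of 40 were higher in YUMMER1.7 than in YUMM1.7 (8.27% of all genes). Mki67 was at 78.6, 51.1 and 250 CPM (YUMMER1.7 to naive 1.67, 1.45 to 1.89), Aurkb at 9.55, 8.52 and 51.4 (2.43) and Rrm2 at 30.8, 22.7 and 126 (2.03), all highest in YUMMER1.7. The lowest ratio of the 40 was that of Cenpa, the centromere histone, at 92.4, 79.5 and 140 CPM (0.60). Of the 45 YUMMER1.7 3-gene cells 42.2% had a UMI of Foxp3, 44.4% of Cd8b1 and 33.3% of Cd8a, against 16.2%, 13.5% and 10.8% of the naive 3-gene cells. The class is thus mixed, and its name does not hold for each of its 3-gene cells. The median of the YUMMER1.7 3-gene cells was 20909 UMIs against 6257 in the rest of the class. The part of CD8 T cells and of depth in the difference between arms was not tested. With cycle-following genes also left out of the clustering, 46 of 234 (19.7%), 14 of 69 (20.3%) and 36 of 92 (39.1%) were 3-gene cells.

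In enriched-fraction cDC1 the share ratio was 0.23 (-0.31 to 0.76) for YUMM1.7 and 0.17 (-0.43 to 0.76) for YUMMER1.7 to naive, at 1887, 2650 and 2111 CPM, with 3 of 40 genes (3.03% of all genes) and 4 of 40 (3.77% of all genes) 2-fold higher. The 3 in YUMM1.7 included Ccnb1, with 21, 59 and 33 UMIs (1.52, 0.78 to 2.32), and the 4 in YUMMER1.7 included Cdc20, with 35, 57 and 73 UMIs (1.58, 0.98 to 2.20). Compared with naive, 22 of 24 mitotic-set and 4 of 14 S-set genes had intervals above 0 in YUMM1.7 (12.4% of all genes). In YUMMER1.7, 8 of 24 mitotic-set genes had intervals above 0 (13.6% of all genes), and 6 of 14 S-set and 1 of 24 mitotic-set genes had intervals below 0 (15.7% of all genes). Cluster 2 had 33 of 439 (7.52%, 5.23 to 10.4), 119 of 789 (15.1%, 12.7 to 17.8) and 81 of 509 (15.9%, 12.8 to 19.4), at 693, 925 and 1168 CPM, so that both tumour arms lay above naive (ratios of 1, 0.44 to 1.61, and 1.08, 0.48 to 1.71). There 8 of 39 genes were 2-fold higher in YUMM1.7 (4.15% of all genes) and 17 of 40 in YUMMER1.7 (6.84% of all genes). Ccnb2 had 15, 88 and 124 UMIs (YUMMER1.7 to naive 2.54, 1.76 to 3.42) and Mcm5 65, 230 and 144 UMIs (YUMM1.7 to naive 0.78, 0.37 to 1.20). With cycle-following genes left out, 56.1%, 88.1% and 87.7% of the cells of cluster 21 fell to 1 unnamed cluster. That unnamed cluster had 73 of 479 (15.2%), 263 of 954 (27.6%) and 183 of 614 (29.8%) 3-gene cells. It took up unlike parts of cluster 21 by arm, since 40.9%, 6.25% and 7.02% joined cDC2 instead. The part of this in its arm difference was not tested, and where the cells of cluster 2 fell is not given here.

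NK cells of the enriched fraction had 104 of 546 (19%), 55 of 339 (16.2%) and 42 of 214 (19.6%) 3-gene cells, shares with overlapping intervals, but sums of 1447, 977 and 1940 CPM. In YUMM1.7, 20 of 39 genes were 2-fold lower than in naive (4.85% of all genes), and 23 of 39 were 2-fold higher in YUMMER1.7 than in YUMM1.7 (4.10% of all genes). Top2a had 192, 29 and 167 UMIs and Ube2c 57, 3 and 51 UMIs, so that the YUMM1.7 library was the low one. NK cells with 10 or more of the genes made up 1.83%, 0% and 1.87% of the thinned cells. The part of these few cells in the gene counts was not tested. Shares of NK cells with 2 or more mitotic-set genes were 5.86%, 2.95% and 4.67%. Immature neutrophils had 13 of 175 (7.43%), 5 of 65 (7.69%) and 33 of 226 3-gene cells (14.6%), a YUMMER1.7 to naive ratio of 0.97 (0.01 to 2.02). With cycle-following genes left out of the clustering, that name held few cells, of which 7 of 8, 2 of 4 and 25 of 27 were 3-gene cells.

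Other cell cycle genes outside the 40 were read from lists of further replication genes, further mitosis genes, G1 drivers, and inhibitors with quiescence genes. In depleted-fraction regulatory T cells, 3 of 38 replication and 3 of 52 mitosis genes were 2-fold higher in YUMMER1.7 than in naive, none lower, with medians of 0.65 and 0.68. These counts stand beside the 3.28% of all genes given above for that comparison. Rad51ap1, a recombination gene, was at 29.3, 55.2 and 68.7 CPM (1.23, 0.90 to 1.56) and Tubb4b, a tubulin gene, at 300, 518 and 616 CPM (1.04). Btg1, an antiproliferative gene of resting lymphocytes, went the other way, at 662, 465 and 232 CPM (-1.51, -1.65 to -1.38), as did Klf4, a quiescence factor, at 15.6, 6.45 and 2.16 (-2.85). Myc, a driver of growth, was at 43.0, 18.3 and 16 CPM (-1.43, -1.97 to -0.92) and Ccnd3, the D-type cyclin of lymphocytes, at 359, 284 and 202 (-0.83), both lower in the arms with more 3-gene cells. Cdkn2a, an inhibitor gene, was at 12.9, 26.5 and 36.3 CPM (1.49, 1.01 to 1.97). In plasma cells Cdc25b, the phosphatase that switches on Cdk1, was at 19.8, 51.3 and 49.0 CPM (YUMM1.7 to naive 1.38, 1.06 to 1.71), Lig1, the replication ligase, at 36.4, 73.2 and 81.3 (1.01), and Btg1 at 76.8, 42.9 and 38.5 (-0.84). In classical monocytes 26 of 50 further mitosis genes and 7 of 38 replication genes were 2-fold higher in YUMMER1.7 than in YUMM1.7, beside 3.54% of all genes. In enriched-fraction regulatory T cells 43 of 52 and 29 of 38 were higher in YUMMER1.7 than in naive, beside 5.59% of all genes.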

How the data were processed

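Single-cell 3′ libraries (Chromium GEM-X v4, per the labels' protocols) were made from 6 pooled samples, 1 per arm and fraction. The deposited matrices hold raw UMI counts per gene and cell, made with Cell Ranger 8.0.1 on mm10 per the submitters' processing notes. The file headers read 8.0.1 for the enriched and 7.0.0 for the depleted files, so the fractions were kept apart.

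Kept cells had 500 or more UMIs, 300 or more genes and a mitochondrial share of 10% or less, and the highest 5% of Scrublet scores per library were removed (scanpy 1.11.5). In the depleted fraction Scrublet's own threshold marked 0% of cells, so that caller had not worked there and the percentile was used. Clusters came from 2000 variable genes without the 40 genes, other cell cycle, histone, antigen receptor, haemoglobin, ribosomal, mitochondrial and sex-linked genes, with 30 components, 15 neighbours and Leiden resolution 1 (leidenalg 0.10.2). A cluster was named when at least 3 listed markers were in 10% or more of its cells with log2 fold above 0.5, and no other type had more markers among its top 10 genes. The wording of this rule was completed after seeing the clusters. Cells with fewer than 2000 UMIs were left out of thinned shares, which leaves 8449, 6284 and 5925 enriched and 11492, 7431 and 4695 depleted cells. Among the cells lost were most of a shallow unnamed cluster of the YUMMER1.7 depleted library.

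Shares carry exact Clopper-Pearson intervals, ratios exact conditional binomial intervals (scipy 1.17.1), at 95%. These cover counting error only, and a count of 0 is read as up to 3 counts. For CPM ratios the unit counted is the UMI and not the cell. Genes with at least 10 UMIs over both libraries were compared. UMI counts are of molecules, and sequences of near-identical genes may share reads. The calculations were tested on simulated data with counting error only. Spread between cells was not simulated, so the intervals were not tested against it. All 40 genes may be named. Beyond Mki67, Top2a, Ccnb1, Mcm5, Rrm2, Pcna, Stmn1 and Hmgb2, up to 8 per contrast with 20 or more UMIs and the interval bound farthest from 0 are given, and up to 3 per further list. Cdk1, Ube2c and Cenpa in regulatory T cells were chosen after their values were seen. The gene set, the further lists and the comparisons were chosen with earlier results of these data known. Counts of intervals above or below 0 were repeated with the median of all genes set to 0, a choice made after seeing the data. Alternatives were tried for thinning, the gene minimum, doublets, mitochondrial share, clustering and scaling.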

Additional observations from a re-analysis of the deposited data

How the results depend on the processing

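No paired analysis was possible because each arm and fraction had 1 library, and no library could be left out. Each choice was changed alone, and values are log2 ratios unless said otherwise. The cause of each shift was not tested. With median-of-ratios scaling the summed ratio was 0.062 in depleted germinal-centre B cells (YUMMER1.7 to naive, -0.03 as reported), a change of sign, 0.55 in plasma cells (YUMM1.7 to naive), 0.99 in depleted and 1.61 in enriched regulatory T cells (YUMMER1.7 to naive), where 16 genes passed 2-fold in the depleted ones (5.59% of all genes). As a mean over cells it was 0.12, 0.87, 1.46 and 1.33 in the same order, and 0.47 in monocytes (YUMMER1.7 to YUMM1.7). Without Hmgb2, Stmn1 and Pcna it was 0.67 in plasma cells, 0.73 and 1.58 in depleted and enriched regulatory T cells and 0.92 in monocytes. Without doublet removal it was 0.83, 1.40 and 0.77 in depleted and enriched regulatory T cells and monocytes, and with cycle genes kept in the clustering 0.70, 1.33 and 0.24. At most 5% mitochondrial UMIs gave 0.76 in depleted regulatory T cells. Leiden resolution 2 gave 0.45 in plasma cells and 1.40 in enriched regulatory T cells. For the share over all cells, YUMM1.7 to naive, the depleted ratio was 0.44 without thinning, 1.07 at 1000 and 0.34 at 4000 UMIs, 0.32 with 2 and 1.20 with 5 or more genes, 1.06 without Hmgb2, Stmn1 and Pcna, and 1.10 with 2 or more mitotic-set genes, the last chosen after seeing the data. The enriched ratio was 0.65 at 1000 and 0.076 (-0.029 to 0.18) at 4000 UMIs, 0.15 with 2 and 0.90 with 5 or more genes, 0.83 without those 3 genes and 0.78 with the mitotic set. The share ratio of plasma cells (YUMM1.7 to naive) was 0.29 without thinning. That of depleted regulatory T cells (YUMMER1.7 to naive) was 0.42 without thinning, 0.61 at 4000 UMIs and 0.57 with 2 or more genes. That of monocytes was 1.60 at 1000 UMIs, 0.25 with 2 and 2.89 with 5 or more genes, 1.39 at Leiden resolution 0.5 and 1.65 with the mitotic set. At 1.5-fold, 32 genes were higher in plasma cells (20.5% of all genes) and 31 in depleted regulatory T cells (10.2% of all genes), both YUMMER1.7 to naive. The naive share was 67.2%, 30.02%, 57.4%, 57.1%, 27.8% and 29.5% in depleted regulatory T cells and 81.3%, 19.1%, 37.1%, 37.2%, 17.3% and 16.5% in cDC1 without thinning, at 1000 UMIs, at 4000 UMIs, with 2 or more genes, with 5 or more genes and without the 3 genes. Levels of the share therefore hold for 2000 UMIs and 3 genes, and depth limits classes of few cells.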
